A study of Rattus norvegicus with 6 samples.

Results

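Interleukins are secreted signals between leukocytes and tissue cells, and the genes of the ligands and of their receptors were followed here in regenerated rat sciatic nerve. Rows were taken whose symbol begins with Il and a digit and whose counts summed to at least 30 over the 6 libraries. The rule kept 53 of the 80 rows with such a symbol, out of 23091 genes in the table. These are 17 rows of ligands and soluble antagonists, 35 of receptor chains and 1 of an enzyme, with 52 symbols because Il13ra1 has a pair of rows. The rows closest to the limit were Il36b and Il31ra, with 30 and 31 counts inside it, and Il1rl2 and Il9r, with 26 each outside it.

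All animals were wild-type male Sprague-Dawley rats with a sciatic nerve defect, and RNA came from the regenerated nerve. In the NC group (3 libraries) the wound was closed with no implant, and in the other group (3 libraries, called conduit 1 to conduit 3) the defect was bridged with GDNF-Gel/HA-Mg, a gel conduit named for GDNF, the glial-derived neurotrophic factor. The labels give neither the age of the animals nor the time after surgery. Whether each library is its own animal is not said, and the p-values therefore measure the spread of these samples alone, which may be technical. Values by library are always given in the order 1, 2, 3 within a group. No group received the gel without the factor, so gel, magnesium and factor cannot be told apart.

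Total counts per library ranged from 15897864 to 18491385. All 7 Schwann cell markers looked up were present, and their summed level ranged from 1839 to 35080 CPM in NC and from 1628 to 17520 with the conduit (CPM, counts-per-million, with library sizes scaled by TMM). Haemoglobin genes took 25.2% of the counts in NC 3, against 1.19% and 1.02% in NC 1 and NC 2 and 8.08% to 14.8% with the conduit. NC 3 also had the highest summed adipocyte markers, 6899 CPM against 989 to 2300 CPM in the other 5 libraries. Skeletal muscle markers summed to 6443 CPM in conduit 3 and 1251 in conduit 2, against 20.9 to 991 CPM in the other 4 libraries. NC 3 and conduit 3 stand apart in these respects, and the part of muscle, fat or blood in the results was not tested.

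An interleukin acts by joining the chains of its receptor. The IL-1 family (IL-1, IL-18, IL-33) signals through MyD88 and NF-kB and is held back by antagonists and decoy receptors. The IL-6 family uses gp130, and the IL-2, IL-4, IL-7 and IL-15 group the common gamma chain, each with JAK kinases and STAT factors. In a cut nerve, IL-1 beta and IL-6 are early signals of Schwann cells and macrophages, and IL-10 is known for ending the inflammatory phase.

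No interleukin row differed between the groups past the test. The edgeR quasi-likelihood test called 0 of 42 tested rows (smallest adjusted p 1.0) and 0 of 13999 genes, a background of 0%. DESeq2 called 11 genes, none of them an interleukin row, and limma-voom called 0 genes. At an unadjusted p under 0.05 edgeR found 3 of the 42 rows, Il10ra, Il17ra and Il18bp, against 1.72% of all genes. The filter on low counts left out the other 11 rows, 7 of ligands and 4 of receptors. The direction leaned to the conduit, with 31 of 42 tested rows above 0 and a median of 0.21 in log2 fold change, where over all genes 47.0% were positive and the median was -0.01. Most tested rows were receptors, whose median fell to -0.062 without conduit 2. Both rows of Il13ra1, which share reads, are among the positive ones. Because the nerve was measured in bulk, fewer cells of a type and less RNA per cell cannot be told apart for any gene described here.

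In 5 rows the 3 conduit libraries all lay above the 3 NC libraries. They were Il10ra, Il17ra, Il18rap, Il18bp and Il15, and they compare with 2.8% of all genes in that direction. No row had all NC libraries above all conduit libraries, against 2.88% of all genes. Il10ra, the ligand-binding chain of the IL-10 receptor, was at 15.5, 15.4 and 12.7 CPM across NC and 22.4, 20.7 and 20.2 CPM across the conduit libraries. Its means were 14.5 ± 1.62 and 21.1 ± 1.19 CPM (SD, n = 3 each). The log2 fold change was 0.54 ± 0.14 (SE, edgeR adjusted p 1.0, 95% interval 0.21 to 0.87).

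Il17ra, the chain shared by receptors of the IL-17 family, was at 49.2, 39.8 and 51.4 CPM across NC and 61.5, 71.9 and 64.9 CPM across the conduit libraries. The log2 fold change was 0.50 ± 0.14 (SE). Il18bp encodes a secreted protein that captures IL-18. It was at 7.84, 7.86 and 7.59 CPM across NC and 10.1, 10.1 and 10.7 CPM across the conduit libraries. The counts were 105 to 186 per library. Libraries within a group differed by less than the groups, but 3 libraries with so few counts do not settle how narrow that spread is. The log2 fold change was 0.41 ± 0.14 (SE, edgeR adjusted p 1.0). Il15 is a growth factor of NK and memory T cells that is presented on its own receptor chain. It was at 3.22, 3.01 and 3.04 CPM across NC and 4.68, 4.29 and 4.01 CPM across the conduit libraries, a log2 fold change of 0.49 ± 0.22 (SE). Il18rap, the accessory chain of the IL-18 receptor, was at 6.65, 3.58 and 4.55 CPM across NC and 6.79, 9.67 and 7.13 CPM across the conduit libraries, a log2 fold change of 0.67 ± 0.30 (SE). The gap between NC 1 and conduit 1 was small for Il18rap, and with upper quartile scaling its groups overlapped.

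**Figure D1:**
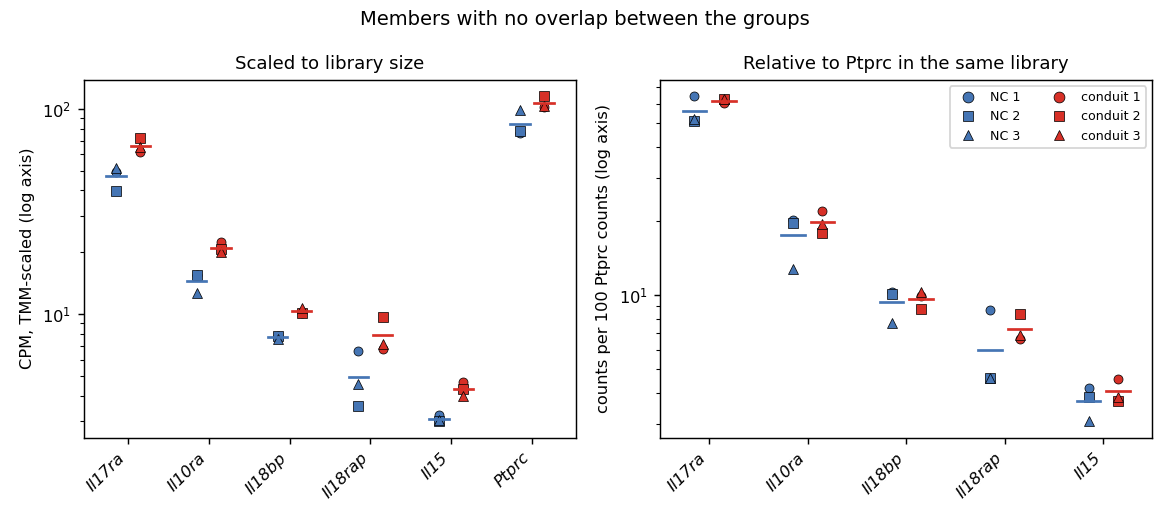
Left, CPM on a log axis of the 5 interleukin rows without overlap between the groups and of the leukocyte gene Ptprc; right, counts of the same rows per 100 Ptprc counts of the same library, also on a log axis. Symbols are single libraries and horizontal lines are group means (n = 3). Conduit libraries lie above NC on the left for all 6 genes, and the groups overlap on the right for all 5 rows.

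Ptprc, which encodes CD45 on all leukocytes, was itself higher in each conduit library. It was at 76.5, 78.1 and 99.0 CPM across NC and 102, 115 and 104 CPM across the conduit libraries. Relative to Ptprc of the same library the groups overlapped for all 5 rows. Il10ra came to 20.2, 19.7 and 12.8 counts per 100 Ptprc counts in NC and to 21.9, 17.9 and 19.5 with the conduit. Il18bp came to 10.3, 10.1 and 7.67 in NC and to 9.9, 8.76 and 10.3 with the conduit. On that scale 0 rows had all conduit libraries above NC, as did 0.393% of all genes, and 6 of the 53 rows had all NC libraries above, as did 25.7% of all genes. Dividing by a gene that is itself higher with the conduit lowers conduit values against NC. Of 6 neutrophil markers 5 were positive in the fit, and the summed level was 33.3 to 320 CPM in NC and 185 to 343 with the conduit. Of 6 T and NK cell markers all were positive, with 11.5 to 26.5 CPM in NC and 15.6 to 39.4 with the conduit. Of 6 macrophage and monocyte markers, Ptprc included, 4 were positive, with 510 to 849 CPM in NC and 565 to 749 with the conduit. Of the B cell and mast cell markers tested, 0 of 4 were positive in each list. Their summed levels were 3.99 to 12.4 CPM in NC and 2.77 to 9.13 with the conduit for B cells, and 64.6 to 130 CPM in NC and 42.04 to 83.4 with the conduit for mast cells. No marker of these 5 lists was at 0 in all libraries. The part of leukocyte number in the higher interleukin rows was not tested beyond the ratio to Ptprc.

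**Figure D2:**
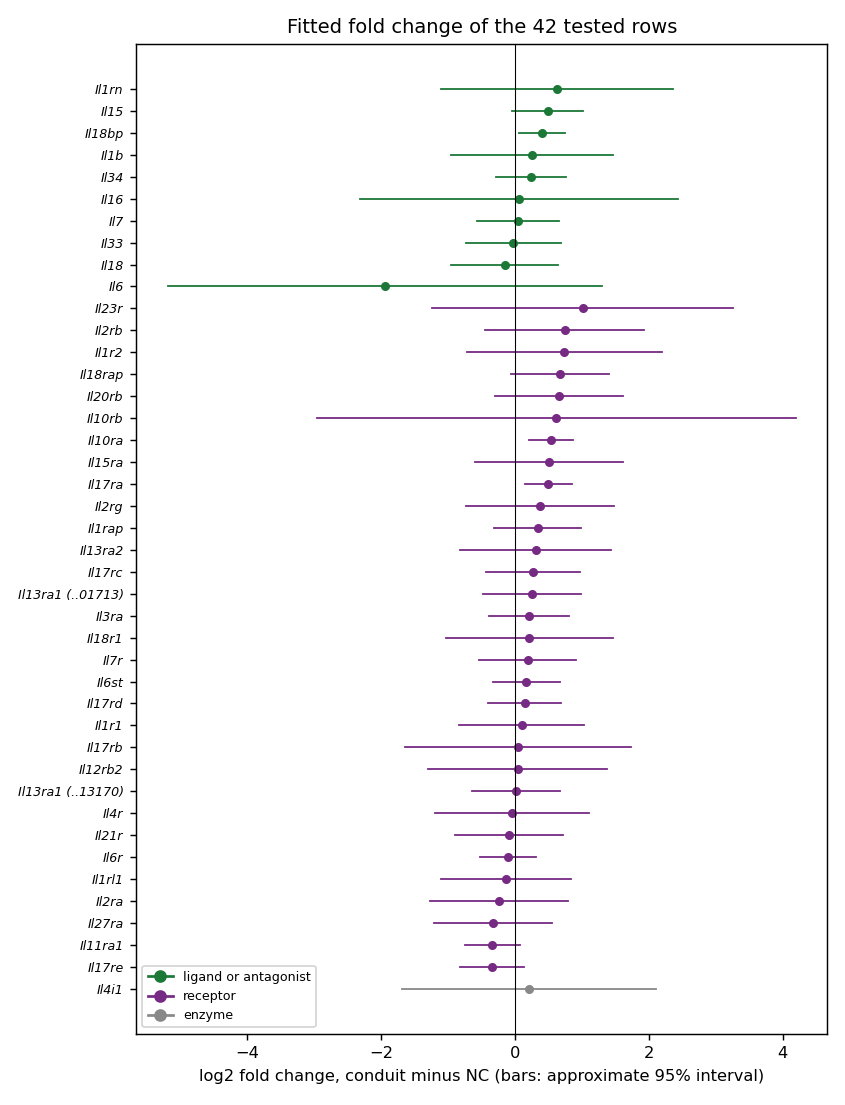
Fitted log2 fold change, conduit minus NC, of the 42 tested rows, with approximate 95% intervals; ligands and antagonists are green, receptors violet and the enzyme grey. Only Il10ra, Il17ra and Il18bp have intervals that exclude 0, and Il6 and Il10rb have among the widest.

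The ligands are described first. The promoters of Il1b, Il1rn, Il6 and Il16 are shown because Il6, Il16 and Il1rn varied widely between libraries and Il1b is the agonist that Il1rn blocks. They are RefSeq windows of build GRCr8, from 250 bases before the start of the gene to 50 after it, printed 5′ to 3′ on the gene's strand. Il1b lies at chr3:137036532-137036831 (minus strand), Il1rn at chr3:27520072-27520371 (plus), Il6 at chr4:5894526-5894825 (minus) and Il16 at chr1:147116693-147116992 (minus). Each of these genes has a single window in the RefSeq table used, and other starts were not searched. Capitals mark matches to an NF-kB motif (GGG, any 2 bases, TTTCC), an AP-1 motif (TGANTCA), a C/EBP motif (TTNNGNAA) and a CRE (TGACGTCA), searched on both strands, with overlapping matches joined.
Il1b: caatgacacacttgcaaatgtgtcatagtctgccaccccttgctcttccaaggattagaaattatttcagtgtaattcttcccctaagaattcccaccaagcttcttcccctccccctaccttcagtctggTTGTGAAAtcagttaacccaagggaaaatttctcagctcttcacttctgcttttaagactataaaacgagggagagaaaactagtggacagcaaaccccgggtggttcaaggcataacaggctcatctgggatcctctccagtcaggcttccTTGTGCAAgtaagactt
Il1rn: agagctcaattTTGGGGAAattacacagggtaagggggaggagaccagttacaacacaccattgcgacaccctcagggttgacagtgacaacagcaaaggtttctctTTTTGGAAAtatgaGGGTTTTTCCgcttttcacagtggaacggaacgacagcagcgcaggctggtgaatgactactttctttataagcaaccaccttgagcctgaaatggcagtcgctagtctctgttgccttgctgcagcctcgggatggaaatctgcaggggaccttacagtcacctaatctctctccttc
Il6: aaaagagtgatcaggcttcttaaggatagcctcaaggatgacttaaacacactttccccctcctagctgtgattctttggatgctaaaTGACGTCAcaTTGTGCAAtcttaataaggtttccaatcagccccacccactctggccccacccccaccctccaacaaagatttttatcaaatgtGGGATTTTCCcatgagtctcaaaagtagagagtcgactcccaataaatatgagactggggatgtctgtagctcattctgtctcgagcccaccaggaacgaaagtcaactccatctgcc
Il16: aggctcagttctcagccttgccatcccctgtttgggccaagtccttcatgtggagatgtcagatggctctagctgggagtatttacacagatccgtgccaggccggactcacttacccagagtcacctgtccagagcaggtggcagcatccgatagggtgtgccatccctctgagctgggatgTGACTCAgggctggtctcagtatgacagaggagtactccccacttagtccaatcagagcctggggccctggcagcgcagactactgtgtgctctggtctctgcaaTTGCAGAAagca

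The Il6 window held the NF-kB motif at bases 183 to 192, a C/EBP match at 99 to 106 and the CRE at 89 to 96, counted from 1 at the left end. The Il1rn window held the NF-kB motif at bases 122 to 131 and 3 C/EBP matches, of which a pair overlaps. The Il16 window held the AP-1 motif at bases 184 to 190 and a C/EBP match, and the Il1b window 2 C/EBP matches. A window of this length held the NF-kB motif in 1.53% of 33469 RefSeq promoters, AP-1 in 7.33%, C/EBP in 41.3% and the CRE in 1.83%. A STAT motif (TTCNNNGAA), held by 8.87%, was in none of the 4 windows. A match is a description of these letters only.

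Il1b, which encodes IL-1 beta, was at 11.9, 9.19 and 27.2 CPM across NC and 18.4, 27.2 and 11.6 CPM across the conduit libraries. NC 3 and conduit 2 were high and the groups overlapped, with means of 16.1 ± 9.70 and 19.1 ± 7.85 CPM (SD, n = 3 each). Il1rn, the antagonist that occupies the IL-1 receptor without signalling, was at 5.97, 34.8 and 8.46 CPM across NC and 30.9, 14.5 and 30.8 CPM across the conduit libraries. NC 2, conduit 1 and conduit 3 were high. The spread of Il1rn within NC was wider than the difference of the means, which were 16.4 ± 15.97 and 25.4 ± 9.46 CPM. Its log2 fold change of 0.63 was 1.82 without NC 2, 0.25 without NC 1 and 0.33 without NC 3.

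The balance of agonist to antagonist therefore differed more between libraries than between groups. The ratio of Il1b to Il1rn counts was 1.99, 0.265 and 3.20 in NC and 0.598, 1.88 and 0.375 with the conduit. These ratios need no scaling of the libraries. In log2 units the mean was 0.25 ± 1.91 in NC and -0.41 ± 1.20 with the conduit (SD, n = 3 each). The difference of -0.67 had an exact permutation p of 0.7 (two-sided, adjusted p 0.9 over 4 ratios; the smallest p possible with 3 against 3 is 0.1). Without NC 3 the difference was 0.049.

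Il33 encodes an alarmin kept in the nucleus of stromal cells and released on damage. It was at 443, 358 and 425 CPM across NC and 381, 560 and 264 CPM across the conduit libraries. The conduit libraries enclosed the NC range, and the means were 408 ± 44.9 and 402 ± 149 CPM (SD, n = 3 each). Its receptor Il1rl1, also called ST2, exists as a membrane form and a soluble decoy, which counts per gene do not separate. Il1rl1 was at 17.7, 10.9 and 25.9 CPM across NC and 21.7, 17.8 and 10.1 CPM across the conduit libraries, lowest in conduit 3 where Il33 was lowest too. In log2 units the ratio of Il33 to Il1rl1 counts averaged 4.57 ± 0.50 in NC and 4.60 ± 0.43 with the conduit (exact permutation p 0.9, n = 3 each, two-sided). Il18 was at 11.8, 9.88 and 18.2 CPM across NC and 14.2, 13.8 and 7.84 CPM across the conduit libraries. Set against its binding protein, the ratio of Il18 to Il18bp counts was 1.51, 1.26 and 2.38 in NC and 1.40, 1.36 and 0.736 with the conduit. NC 3 was the highest and conduit 3 the lowest, and the groups overlapped. The log2 difference of -0.56 had an exact permutation p of 0.4 (two-sided, n = 3 each, adjusted p 0.8). It was -0.30 without NC 3 and -0.26 without conduit 3.

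Il6, a cytokine that signals through gp130, ranged 33.8-fold over the libraries. The NC libraries held 14, 6 and 162 counts and the conduit libraries 18, 31 and 9. In CPM these were 0.727, 0.347 and 11.7 in NC and 1.05, 1.68 and 0.531 with the conduit. The difference rested on NC 3 alone. The log2 fold change was -1.95 ± 1.33 (SE, edgeR adjusted p 1.0), and without NC 3 it was 1.00. It was -0.34 with limma-voom and -0.32 with the replicate block. The high haemoglobin and adipocyte levels of NC 3 are given above, and their part in Il6 was not tested.

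Il16 encodes a precursor from which a chemoattractant of CD4+ cells is cut, and the gene also makes a long form in neurons. It was at 31.5, 227 and 26.5 CPM across NC and 103, 33.3 and 160 CPM across the conduit libraries. NC 2 was 8.55 times as high as NC 3, so both groups spanned high and low libraries. Means were 94.97 ± 114 and 98.8 ± 63.4 CPM (SD, n = 3 each). Il34, a ligand of the CSF-1 receptor on macrophages, was at 26.4, 39.2 and 24.4 CPM across NC and 40.5, 32.7 and 33.3 CPM across the conduit libraries. NC 2 lay within the conduit range, and the log2 fold change was 0.24 ± 0.21 (SE), 0.48 without NC 2 and 0.12 without NC 3. Il7, a survival factor of lymphocytes, was at 3.53, 4.05 and 4.99 CPM across NC and 3.63, 4.78 and 4.54 CPM across the conduit libraries, and NC enclosed the conduit range.

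**Figure D3:**
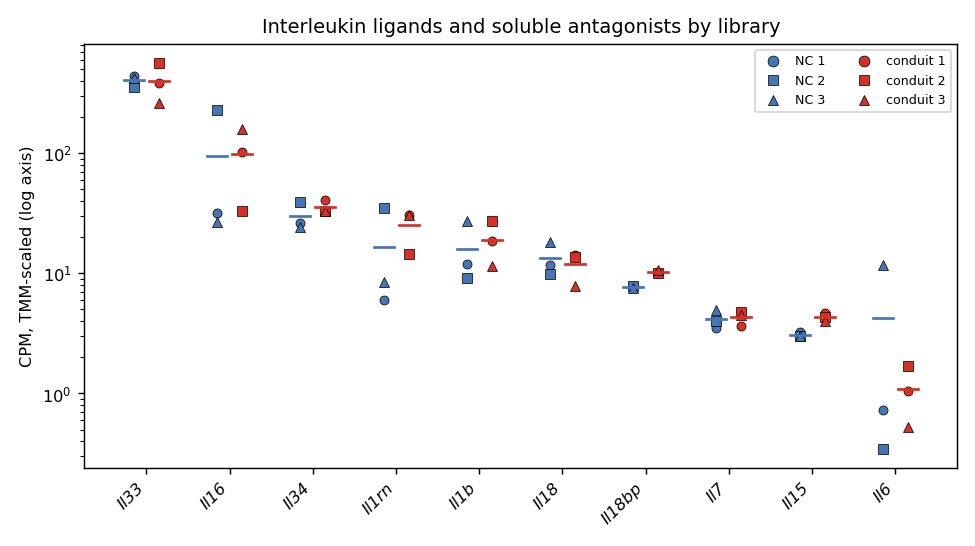
CPM on a log axis of the 10 tested ligands and soluble antagonists. Symbols are single libraries and horizontal lines are group means (n = 3); Il18bp and Il15 separate the groups, while Il16, Il1rn and Il6 span a wide range within NC.

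The other 7 ligand rows had too few counts to be tested. Il10 had 12, 6 and 17 counts across NC and 0, 6 and 6 across the conduit libraries, so conduit 2 and conduit 3 matched NC 2. Il23a, a chain of IL-23, had 8, 4 and 8 counts across NC and 18, 4 and 19 across the conduit libraries. Il17b had 9, 5 and 2 counts across NC and 5, 22 and 8 across the conduit libraries. For Il1a, the other agonist of the IL-1 receptor, the counts were 4, 11 and 9 across NC and 7, 0 and 4 across the conduit libraries. Il1f10, which encodes IL-38, had 14, 6 and 3 counts across NC and 0, 8 and 3 across the conduit libraries. For Il12a the counts were 4, 2 and 6 across NC and 3, 13 and 4 across the conduit libraries, and for Il36b 1, 2 and 7 in NC and 3, 8 and 9 with the conduit. The groups overlapped for all 7. At this depth 3 counts, the limit that a count of 0 allows, are 0.162 to 0.189 CPM of the unscaled total, which covers counting error only. Over the 10 tested ligands and antagonists 7 were positive and 3 negative, with a median log2 fold change of 0.15.

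Some members shared their 3 highest or 3 lowest libraries with the 3 high libraries of the myelin gene Mbp, at shares near those of all genes. Mbp was at 295, 6100 and 420 CPM across NC and 2526, 266 and 3085 CPM across the conduit libraries. NC 2, conduit 1 and conduit 3 were its 3 high libraries. The same 3 libraries were the highest for 8 of the 42 tested rows, Il16, Il1rn, Il34, Il17rd, Il1rap, Il7r, Il17rb and Il4i1, as for 2266 of all 13999 genes (16.2%). They were the lowest for another 8, Il33, Il1r1, the pair of Il13ra1 rows, Il6r, Il17re, Il21r and Il12rb2, as for 1720 of all genes (12.3%). For Il16 and Mbp alike the highest library was NC 2, followed by conduit 3 and conduit 1. Their 3 lower libraries came in the opposite order to each other. Il1r1, the signalling receptor of IL-1, was lowest in those 3 libraries, at 117, 40.9 and 80.8 CPM across NC and 78.6, 104 and 72.6 CPM across the conduit libraries. The summed Schwann cell markers had the same 3 high libraries, and the part of Schwann cell content in these rows was not tested. Mbp is itself among those 7 markers. Sox10, which marks the lineage, was at 154, 243 and 21.8 CPM across NC and 179, 122 and 161 CPM across the conduit libraries.

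**Figure D4:**
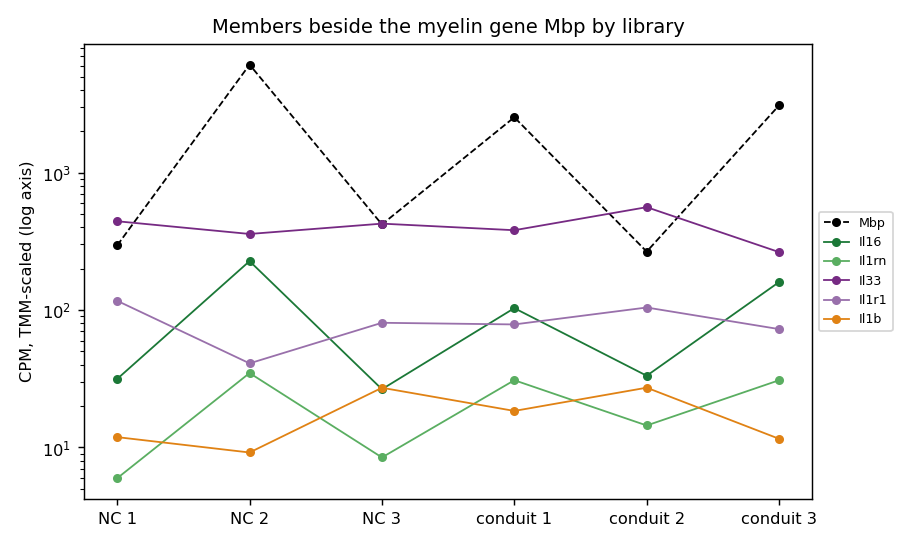
CPM on a log axis of 5 interleukin rows and of Mbp (dashed) in the 6 libraries; lines only join the points of a gene, since the libraries have no order. Il16 and Il1rn are high where Mbp is high (NC 2, conduit 1, conduit 3), and Il33 and Il1r1 are low there.

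Of the receptor chains 31 were tested, of which 23 were positive and 8 negative, with a median log2 fold change of 0.21. This lean rested on conduit 2, without which the median was -0.062. In the IL-1 family, the decoy receptor Il1r2, which binds IL-1 but has no signalling domain, was at 2.18, 1.16 and 5.71 CPM across NC and 5.62, 5.76 and 3.60 CPM across the conduit libraries. NC 3 lay with the higher conduit libraries, and the log2 fold change of 0.74 was 1.57 without NC 3 and 0.35 without NC 2. The ratio of Il1r2 to Il1r1 counts was 0.0189, 0.0289 and 0.0711 in NC and 0.0719, 0.0555 and 0.0499 with the conduit. Its log2 difference was 0.78 (exact permutation p 0.3, two-sided, n = 3 each, adjusted p 0.8), and it was 0.36 without NC 1 and 1.32 without NC 3. Neutrophils are known to carry much of this decoy, and their summed markers were likewise low in NC 1 and NC 2 (57.6 and 33.3 CPM) and high in NC 3 (320 CPM). With the conduit the orders differed. The markers summed to 185, 343 and 266 CPM, lowest in conduit 1, whereas Il1r2 was lowest in conduit 3. The part of neutrophils in Il1r2 was not tested. Il1rap, the accessory chain of the IL-1 and IL-33 receptors, had a mean of 11.1 ± 2.77 CPM for NC and 14.1 ± 3.78 for the conduit (SD, n = 3 each). Il18r1, the binding chain of the IL-18 receptor, averaged 2.36 ± 1.03 and 2.75 ± 1.36 CPM.

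Of the 5 tested gp130 family members, the ligand Il6 included, 4 were negative. Il6st, which encodes gp130 and serves IL-6, IL-11, LIF and CNTF, had the most counts of any member. It was at 1263, 910 and 1324 CPM across NC and 1256, 1379 and 1290 CPM across the conduit libraries. NC 2 was low and the other 5 libraries lay close together, and the log2 fold change was 0.17 ± 0.21 (SE). Il6r, the IL-6 binding chain, was at 37.9, 31.8 and 44.5 CPM across NC and 35.2, 40.1 and 30.7 CPM across the conduit libraries. Il11ra1, the IL-11 binding chain, was at 63.3, 60.1 and 56.2 CPM across NC and 39.5, 44.5 and 58.0 CPM across the conduit libraries. For Il11ra1, conduit 1 and conduit 2 lay below all NC libraries and conduit 3 did not. The log2 fold change was -0.34 ± 0.17 (SE, unadjusted p 0.0896, edgeR adjusted p 1.0), and it was -0.21 without conduit 1 and -0.51 without conduit 3. Il27ra averaged 1.10 ± 0.20 and 0.875 ± 0.109 CPM (SD, n = 3 each). Il31ra had 31 counts in all and was not tested.

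Of the 12 tested members grouped with the common gamma chain, Il7 and Il15 among them, 9 were positive. The IL-13 chains were counted in this group, although they do not pair with the common gamma chain. They are Il13ra2 and the pair of Il13ra1 rows, and all were positive. Il4r, the IL-4 binding chain, was at 77.1, 53.2 and 150 CPM across NC and 93.4, 126 and 52.6 CPM across the conduit libraries, high in NC 3 and conduit 2. Il2rg, the common gamma chain itself, was at 24.4, 16.2 and 52.6 CPM across NC and 39.5, 51.0 and 30.3 CPM across the conduit libraries, with NC 3 the highest of all. Il2rb, the beta chain that NK and T cells use for IL-2 and IL-15, averaged 4.25 ± 2.00 and 7.12 ± 2.93 CPM. It was highest in conduit 2 at 10.4 CPM, where the summed T and NK cell markers were highest as well (39.4 CPM). The log2 fold changes of Il15ra, Il7r and Il13ra2 were 0.51, 0.19 and 0.31, and those of Il2ra and Il21r were -0.24 and -0.09. None of these passed the test. Il13ra2 is a decoy for IL-13, and Il2ra the chain that raises affinity for IL-2.

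Il13ra1, the IL-13 binding chain, and Il10rb, the shared chain of IL-10 and IL-22 receptors, are uncertain. The deposited values of the pair of Il13ra1 rows are not whole, but their sum is whole in each library, so reads were split between them. The larger row was at 92.5, 54.0 and 97.9 CPM across NC and 75.4, 102 and 70.3 CPM across the conduit libraries. The sum was at 138, 80.9 and 133 CPM across NC and 111, 162 and 104 CPM across the conduit libraries. Il10rb had at most 22.8 estimated counts and was at 0 in NC 1 and conduit 3. Its values add up to whole numbers with those of Ifnar2, the next gene on chromosome 11 in build GRCr8, so reads were split between these as well. That sum was at 77.3, 59.4 and 77.1 CPM across NC and 79.2, 78.6 and 68.3 CPM across the conduit libraries. How far Il10rb is under-counted is not known, and its level is not read here.

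In the IL-17 family, the receptor chains other than Il17ra had overlapping groups. Il17re was at 13.7, 11.9 and 17.8 CPM across NC and 11.7, 12.2 and 10.2 CPM across the conduit libraries, a log2 fold change of -0.35 ± 0.19 (SE, unadjusted p 0.124, edgeR adjusted p 1.0). It was -0.17 without NC 3. Il17rc, the partner of Il17ra in the IL-17A receptor, averaged 12.0 ± 2.19 and 14.5 ± 5.21 CPM (SD, n = 3 each). Il17rd, which also restrains FGF signalling, averaged 13.3 ± 3.06 and 14.7 ± 2.27 CPM. Il17rb, the IL-25 receptor, averaged 2.78 ± 2.42 and 2.87 ± 0.89 CPM and ranged 6.61-fold over the libraries.

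The remaining receptor rows were low. Il3ra averaged 7.54 ± 1.81 and 8.74 ± 1.40 CPM (SD, n = 3 each), and Il20rb 2.29 ± 0.54 and 3.62 ± 1.47. The log2 fold changes of Il12rb2 and Il23r were 0.04 ± 0.55 and 1.01 ± 0.92 (SE). Il12rb1, shared by the IL-12 and IL-23 receptors, Il22ra2, the synaptic adhesion protein Il1rapl2 and the IL-31 chain Il31ra were not tested, with summed counts of 49, 40, 60 and 31. Il22ra2, a soluble protein that captures IL-22, had 4, 1 and 3 counts across NC and 9, 20 and 3 across the conduit libraries. Il4i1, an amino acid oxidase induced by IL-4 and no ligand or receptor, averaged 0.652 ± 0.287 and 0.760 ± 0.597 CPM, and its values that are not whole show that reads were shared with another row.

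**Figure D5:**
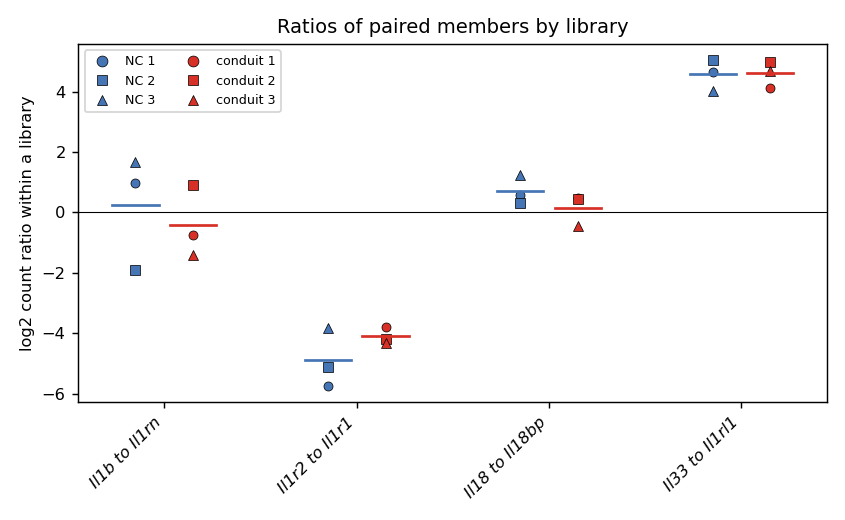
Log2 count ratios within each library for an agonist and its antagonist (Il1b to Il1rn, Il18 to Il18bp), a decoy and its signalling receptor (Il1r2 to Il1r1) and a ligand and its receptor (Il33 to Il1rl1). Symbols are single libraries and horizontal lines are group means (n = 3); the groups overlap in all 4 ratios.

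The signalling genes behind these receptors showed no called difference either. Of 53 listed JAK, STAT, SOCS, MyD88 and inflammasome genes and interleukin-like cytokines and receptors, 52 were looked at and 49 tested. edgeR called 0 of the 49, with 0 at an unadjusted p under 0.05, and DESeq2 and limma-voom called 0. The log2 fold change was positive for 33 and negative for 16, with a median of 0.08. In 2 of the 49 all conduit libraries lay above NC, near the share of 2.8% over all genes. Csf3r, the G-CSF receptor carried by neutrophils, was at 8.15, 4.91 and 21.6 CPM across NC and 25.5, 41.5 and 21.8 CPM across the conduit libraries, with NC 3 just below conduit 3. Tyk2, a JAK kinase of IL-10 family, IL-12 and interferon receptors, was at 28.8, 24.5 and 28.4 CPM across NC and 30.9, 29.7 and 34.1 CPM across the conduit libraries. Ptpn6, a phosphatase of leukocytes, averaged 36.9 ± 4.78 and 46.2 ± 6.86 CPM (SD, n = 3 each), and Socs2, a feedback inhibitor, 9.54 ± 2.19 and 13.2 ± 3.04. On the lower side the 3 smallest unadjusted p were those of Stat5a, Csf1 and Ptpn11, with log2 fold changes of -0.15, -0.09 and -0.10. Myd88 averaged 46.0 ± 10.6 and 46.0 ± 8.03 CPM, and Stat3, the main STAT of gp130, 227 ± 41.3 and 221 ± 29.7.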

How the data were processed

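Values are expected counts by gene as deposited, unscaled, of which 1898 to 2085 per library are not whole. HISAT2, Bowtie2 2.2.8, DESeq2 and StringTie 1.3.1 appear in the submitters' processing notes without roles. Counter, build and gene models: not given in the sources used here. Per the labels' protocols, poly(A) RNA was selected and libraries were made with the NEBNext Ultra kit, with no strand-marking step named, so reads of overlapping or antisense genes may be mixed. Samples were assigned from column names, where Con is NC and Gel_HA-Mg, lacking the word GDNF, is the conduit group.

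Counts were rounded. Genes past filterByExpr (13999) were TMM-scaled and tested with edgeR 4.0.16 (quasi-likelihood, two-sided, Benjamini-Hochberg over all genes, called at adjusted p under 0.05) in R 4.3.3; the SE is the fold change divided by the root of F, and 95% intervals are approximate. The test was checked on simulated data. DESeq2 1.42.0, limma-voom (limma 3.58.1), other scalings and filters and left-out libraries were alternatives. Ratios used counts plus 0.5. The 6 libraries all differed from each other by more than sampling noise (chi-square of counts). Members and lists were chosen with earlier results of these data known. Given by library are ligands and antagonists, the 8 receptors with most counts (Il13ra1 counted once) and members without overlap. So are the 3 per direction with the smallest unadjusted p and some cytokines and receptors fixed by name. Of the pathway list, the 3 per direction and those without overlap are named. Il2rb, Il22ra2, Stat3 and Myd88 were added after their values were seen. RefSeq promoters matched 41 of 52 symbols. Of the pathway list 1 gene was not analysed here. Figures were drawn with matplotlib 3.10.9.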

Additional observations from a re-analysis of the deposited data

How the results depend on the processing

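No interleukin row and no pathway gene was called under any of the 8 other settings or with any library left out. The labels do not say whether replicate numbers pair the libraries. Same-numbered deviations from the group means correlated at 0.10, -0.72 and 0.06. With 3 libraries per group, whose deviations depend on each other, such values cannot decide the question. With the replicate block 1 row had an unadjusted p under 0.05, against 3 without it, the median of the ligands was 0.31 and the log2 fold change of Il4r changed sign to 0.024. The ligand median of 0.15 was 0.24 with no filter and 0.32 with limma-voom, and ranged from 0.082 to 0.33 with each replicate left out, where the receptor median ranged from -0.062 to 0.26. The 5 rows without overlap became 0 per Ptprc count. With each replicate left out they became 6 to 10, with 10 without NC 2, 9 without NC 3 and 8 without conduit 3. There 8.48%, 9.25% and 6.79% of all genes, in that order, had conduit libraries above NC. Library scaling was kept when a replicate was left out, so the count could only stay or rise. That the 5 rows were in each of these counts was therefore fixed in advance. These alternatives were chosen after seeing the data. Of 23 named rows tested (both Il13ra1 rows included, Il2rg not), 11 kept their direction throughout. In all settings other than left-out libraries, 22 did. With each replicate left out, log2 fold changes that changed sign ranged from -0.48 to 1.76 for Il16, -0.34 to 0.20 for Il33, -0.33 to 0.13 for Il18, -0.10 to 0.85 for Il1b, -2.49 to 1.00 for Il6 and -0.049 to 0.19 for Il7. Among receptors they ranged from -0.20 to 0.17 and -0.070 to 0.47 for the Il13ra1 rows (ENSRNOG00000013170 and ENSRNOG00000001713), -0.22 to 0.50 for Il1r1, -0.40 to 0.21 for Il1rl1, -0.36 to 0.47 for Il4r and -0.22 to 0.017 for Il6r. The ratio of Il1b to Il1rn ranged from -1.75 to 0.049 and that of Il33 to Il1rl1 from -0.24 to 0.26.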

Other observations

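Of the 27 interleukin rows below the limit of 30 summed counts, 13 had a count above 0 and 14 were at 0 in all 6 libraries. Listed at 0 throughout were the type 2 cytokines Il4, Il5, Il9 and Il13, and also Il3, Il17c, Il17f, Il19, Il20, Il20ra, Il22, Il36a, Il36g and Il36rn. Among the scarce rows were T cell products: Il2 had 8 counts in all and Il17a 1. Il9r, the IL-9 receptor of mast cells and T cells, had 2, 2 and 0 counts across NC and 7, 8 and 7 across the conduit libraries, so all conduit libraries lay above NC. Il21, a T cell cytokine, did so too, with 0, 1 and 0 counts against 2, 2 and 7. Il24, an IL-10 family cytokine, had all NC libraries above, with 5, 6 and 4 counts against 0, 2 and 3. Of 2836 genes with summed counts above 0 and below 30, 2.47% had all conduit libraries above NC and 0.67% all NC libraries above. These shares and the 3 rows were compared on unscaled counts. The shares include genes with too few counts to separate the groups, which lowers them, so they are no matched background for the 3 rows. The 3 rows were picked after their values were seen, and without the filter on low counts edgeR gave each an adjusted p of 1.0.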
